A study of Homo sapiens with 8 samples.

Results

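The mitochondrial ribosomal protein genes were taken as every gene of the deposited table whose symbol begins with MRPL or MRPS, followed by a number and, for some, a letter from A to C. The rule found 78 of the 61806 genes, 49 with a large-subunit symbol (MRPL) and 29 with a small-subunit symbol (MRPS), spread over 21 chromosomes. All 78 met the minimum of 10 counts in at least 4 libraries and were tested.

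The libraries came from N/TERT-1, a line of human epidermal keratinocytes immortalised with telomerase and wild type here, in which mRNA was captured with oligo(dT). There were 4 ethanol libraries and 4 O/A libraries, each from an independent experiment. Ethanol was the solvent control, and O/A was the combination of oligomycin, an inhibitor of the ATP synthase of mitochondria, with the complex III inhibitor antimycin A. Treatment lasted 4 hours, and O/A elsewhere in the same work was 10 µM oligomycin with 4 µM antimycin A. All results therefore concern 1 cell line, and in such bulk libraries fewer cells that express a gene and less of its RNA per cell cannot be told apart.

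Mitochondria translate a handful of membrane proteins of the respiratory chain from their own DNA, and they do so on a ribosome of their own. Its ribosomal RNAs are made inside the organelle, while every protein of its large and small subunits is encoded in the nucleus, made in the cytosol and imported. Part of these proteins have counterparts in bacterial ribosomes and the rest are found only in mitochondria. The comparison of O/A with ethanol asks how the transcripts of these proteins stood after a block of respiration.

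The libraries held 17210404 to 20999927 counts each. All 10 keratinocyte markers were tested, and their summed FPKM (fragments per kilobase of exon, scaled to the library total) was 5840 to 6170 with ethanol and 5220 to 5400 with O/A. Of the markers of other cells, 1 of 7 fibroblast genes, 2 of 6 melanocyte genes and 1 of 5 leukocyte genes passed the count minimum, and each of these lists summed to less than 3 FPKM in every library. The leukocyte list summed to 0.46 to 0.62 FPKM with ethanol and to 0.65 to 0.89 FPKM with O/A, the other lists of foreign markers overlapped between groups, and 2 of the 6 melanocyte genes had no counts. The part of these in the results was not tested.

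Promoter sequence is shown first for 6 members, 4 that were lower and 2 that were higher in O/A. All but MRPL44 hold short letter strings known as binding sites of ETS-family factors (such as GABP) or of YY1. These factors are long known to act at nuclear genes of mitochondrial proteins. The 6 were picked from the 8 largest falls and 8 largest rises by no fixed rule. Of the same lists, MRPS17, MRPS2, MRPS27, MRPS5 and MRPS36 held neither string in the 300-base promoters counted below. MRPL48, MRPL52, MRPL22 and MRPL32 held at least 1. The runs are from RefSeq on GRCh38.p14, read 5′ to 3′ on the strand of the gene, from 80 bases before to 20 bases after the annotated start. Capitals mark CCGGAAG (ETS) or AAGATGGCG (YY1) on either strand. These are MRPL16 at chr11:59810759-59810858, minus strand, MRPL44 at chr2:223957383-223957482, plus strand, MRPS34 at chr16:1773115-1773214, minus strand, and MRPS12 at chr19:38930864-38930963, plus strand, all lower in O/A, and then MRPL42 at chr12:93467434-93467533, plus strand, and MRPS10 at chr6:42217842-42217941, minus strand, both higher in O/A.
MRPL16: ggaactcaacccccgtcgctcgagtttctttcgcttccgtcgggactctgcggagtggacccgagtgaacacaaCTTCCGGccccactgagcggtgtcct
MRPL44: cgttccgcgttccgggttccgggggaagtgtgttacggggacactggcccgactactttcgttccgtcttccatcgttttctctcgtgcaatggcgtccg
MRPS34: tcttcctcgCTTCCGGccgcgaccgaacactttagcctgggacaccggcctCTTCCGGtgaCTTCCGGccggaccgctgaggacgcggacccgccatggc
MRPS12: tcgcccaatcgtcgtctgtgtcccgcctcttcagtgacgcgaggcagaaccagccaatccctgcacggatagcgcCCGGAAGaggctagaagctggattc
MRPL42: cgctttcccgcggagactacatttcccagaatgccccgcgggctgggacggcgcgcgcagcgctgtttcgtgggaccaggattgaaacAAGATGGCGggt
MRPS10: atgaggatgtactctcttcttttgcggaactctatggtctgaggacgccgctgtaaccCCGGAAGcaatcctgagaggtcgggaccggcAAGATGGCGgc

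MRPS34 held 3 matches to the ETS letters in this window, MRPL16, MRPS12 and MRPS10 held 1 each, and MRPL44 held none. The YY1 letters lay just after the start of both MRPL42 and MRPS10.

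In the whole set, O/A left most mitoribosome transcripts close to their level in ethanol. Of the 78 genes, 23 fell and 9 rose at an adjusted p-value of 0.05 or less (edgeR, quasi-likelihood), and 46 did not pass. Of all 14893 genes tested, 27.7% fell and 26.0% rose by the same rule, so the share of members that fell (29.5%) was close to that of all genes and the share that rose (11.5%) was below it. With a log2 fold change, log2(FC), beyond 0.25 in either direction also required, 12 members fell and 2 rose, against 18.9% and 15.8% of all genes. Every O/A library lay below every ethanol library for 19 members and above for 8, against 24.8% and 22.8% of all genes. The log2(FC) of 63 members (80.8%) was within 0.25 of no change, compared with 57.0% of all genes tested. The median log2(FC) was -0.025 over the members and -0.0004 over all genes.

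**Figure D1:**
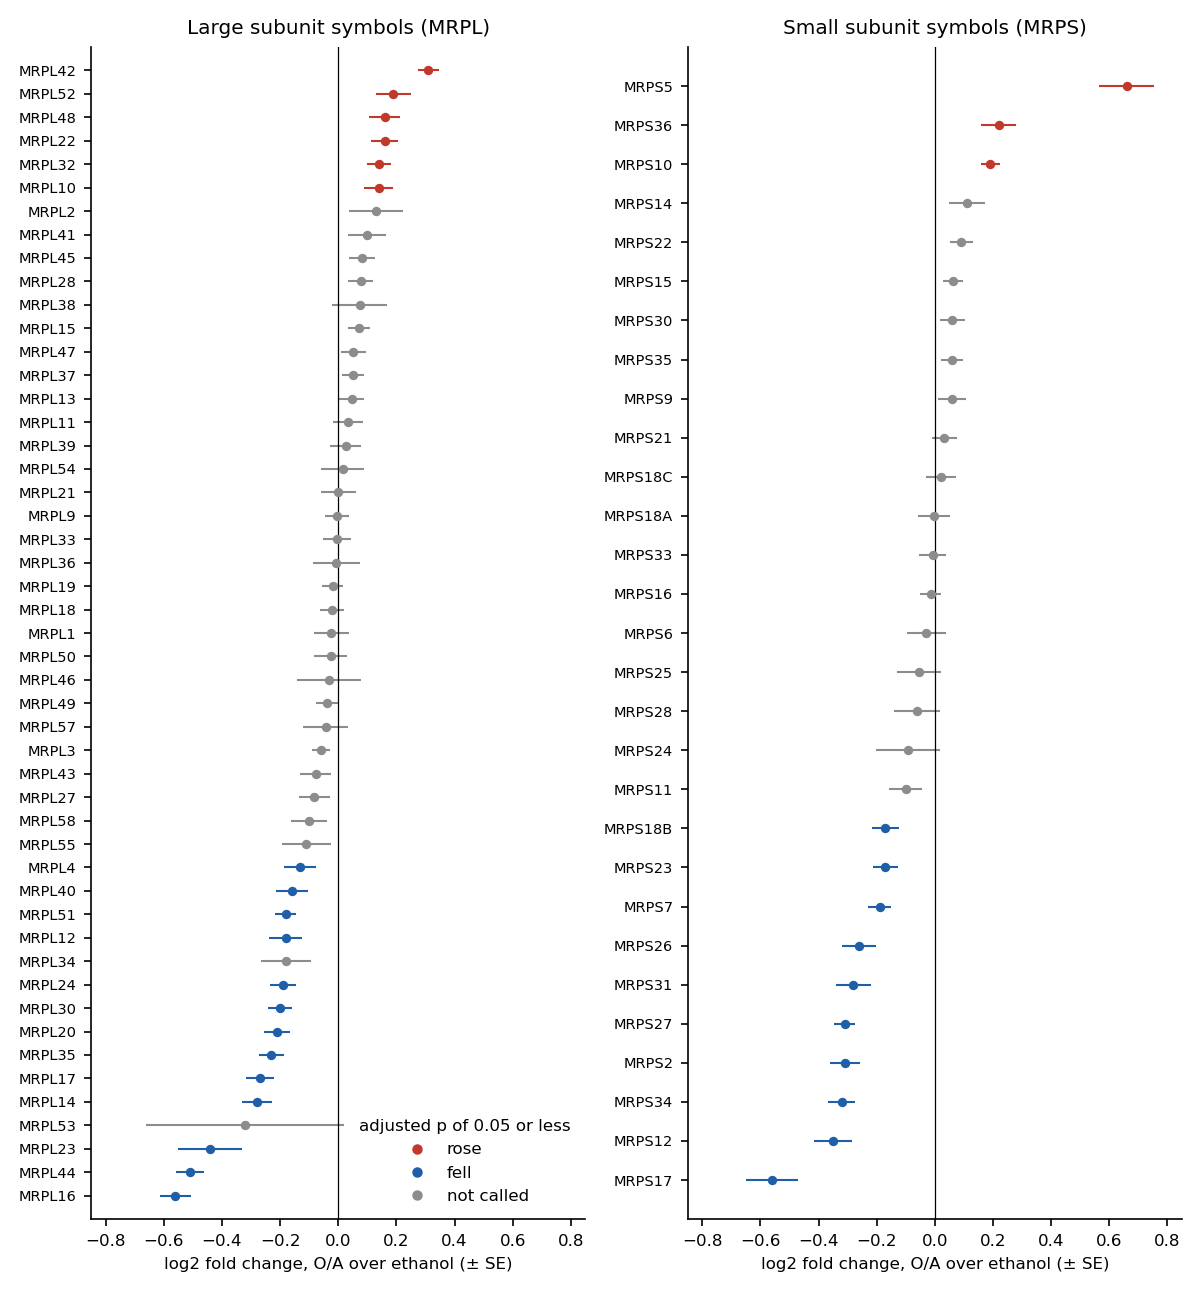
log2 fold change of O/A over ethanol for the 49 MRPL genes (left) and the 29 MRPS genes (right), ordered by size, with the standard error as a bar and the call at an adjusted p-value of 0.05 or less as colour. Most points lie within 0.25 of the zero line, and the lower tail holds more called genes (23) than the upper tail (9).

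The large and small subunits had similar medians. Of the 49 MRPL genes, 13 fell and 6 rose, with a median log2(FC) of -0.024 and an interquartile range from -0.18 to 0.052. Of the 29 MRPS genes, 10 fell and 3 rose, with a median of -0.029 and an interquartile range from -0.19 to 0.059. Falls made up 26.5% of the MRPL and 34.5% of the MRPS genes, against 27.7% of all genes tested. When a log2(FC) beyond 0.25 was also required, 5 of 49 MRPL and 7 of 29 MRPS genes fell, against 18.9% of all genes. By that rule 1 gene of each subunit rose, and the difference between subunits was not tested. The MRPS median turned to 0.0059 under quantile normalization, and the MRPL median was between -0.07 and -0.016 in every fit. The mean log2 CPM (CPM, counts scaled by TMM-adjusted library size) of MRPL genes minus that of MRPS genes was -0.171 ± 0.011 in ethanol and -0.168 ± 0.018 in O/A (SD, n = 4 each). Its 4 ethanol values ran from -0.18 to -0.155 and its 4 O/A values from -0.194 to -0.151, so the groups overlapped fully. The O/A minus ethanol difference of this measure was 0.003. It became -0.051 when the 26 members whose exons overlap another expressed gene were left out, and 0.037 without the 10 members described below as mostly shared. Its sign also turned without ethanol replicate 4 (-0.00011) or O/A replicate 1 (-0.0027), so no direction is given for it.

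In the deposited FPKM, the 78 genes summed to between 1389 and 1450 with ethanol and to between 1319 and 1364 with O/A. The means were 1433 ± 30 and 1334 ± 21 (SD, n = 4 each), and the groups did not overlap. MRPL genes went from 951.2 ± 19 to 883.5 ± 13, and MRPS genes from 482.2 ± 11 to 450.5 ± 8.4. The ratio of the summed MRPL to the summed MRPS FPKM stayed between 1.95 and 2.0 in all 8 libraries. FPKM divide by the library total, and with library totals as the only scaling the median log2(FC) of all genes tested was -0.046.

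Among members with counterparts in bacteria, 10 of 29 large-subunit genes fell and 3 rose, and 4 of 16 small-subunit genes fell and 2 rose. Of the 20 mitochondria-specific large-subunit genes, 3 fell and 3 rose. The 10 mitochondria-specific small-subunit genes had the lowest median of the 4 classes, -0.17, with 6 falls and no rise. In every other fit that was run (scaling, filter, tool, block and left-out libraries), 6 of these 10 genes fell and the median stayed between -0.22 and -0.15. These fits reuse the same libraries, and differences between the classes were not tested. The 6 that fell were MRPS34 (log2(FC) -0.32), MRPS27 (-0.31), MRPS31 (-0.28), MRPS26 (-0.26), MRPS18B (-0.17) and MRPS23 (-0.17), while MRPS25 (-0.054), MRPS33 (-0.0072), MRPS35 (0.059) and MRPS22 (0.091) did not pass. MRPS35 passed as a rise without O/A replicate 2 (0.095), and MRPS22 with median-ratio scaling (0.10) and without ethanol replicate 3 (0.11) or O/A replicate 1 (0.11).

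By place in the large subunit, the 8 proteins around the exit of the nascent-chain tunnel, where new membrane proteins leave the ribosome, included 4 falls (MRPL44, MRPL23, MRPL17 and MRPL24) and 1 rise (MRPL22), with a median of -0.082. The 5 proteins of the stalk, the arm that recruits translation factors, included 1 fall (MRPL12, -0.18, which missed the threshold at -0.13 without O/A replicate 2) and 1 rise (MRPL10, 0.14). Of the 7 proteins of the central protuberance, which faces the small subunit, MRPL40 fell (-0.16) and MRPL48 rose (0.16). At the tunnel exit 62.5% were called, in the stalk 40.0% and in the central protuberance 28.6%, against 53.7% of all genes tested. These groups are small, and differences between them were not tested.

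MRPL16, whose bacterial counterpart lies by the peptidyl transferase centre, had the lowest log2(FC) along with MRPS17. Its TMM-scaled CPM was 37.9, 42.5, 41.8 and 37.3 in the ethanol libraries and 27.5, 27.3, 26.2 and 27.0 in the O/A libraries. Every O/A library was below every ethanol library. The log2(FC) was -0.56 (standard error, SE, 0.053, edgeR quasi-likelihood adjusted p = 3.42e-13), and the exact two-sided permutation test of 4 against 4 libraries gave p = 0.0286, the smallest it can give. The gene (ENSG00000166902) lies on the minus strand of chromosome 11 from 59806140 to 59810778, and no other annotated gene shares its exons.

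MRPS17, the counterpart of bacterial protein S17 of the small subunit, was measured at 11.7, 12.3, 13.3 and 11.2 CPM with ethanol and at 8.17, 9.16, 7.20 and 8.28 CPM with O/A, with no overlap. Its log2(FC) was also -0.56 (SE 0.091, edgeR adjusted p = 6.01e-07). Of its canonical transcript, 29.4% of the bases are shared with other annotated genes.

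MRPL44, a mitochondria-specific protein with an RNase III fold, had nearly equal values within each group. It had 43.7, 43.6, 43.9 and 44 CPM with ethanol and 31.2, 29.9, 31.2 and 30.5 CPM with O/A. The log2(FC) was -0.51 (SE 0.047, edgeR adjusted p = 1.61e-13), and its FPKM fell from 26.3 ± 0.15 in ethanol to a mean of 17.9 in O/A. It lies on chromosome 2 from 223957463 to 223967714.

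MRPL23, a protein of the tunnel exit, had 9.0, 9.42, 9.17 and 6.86 CPM with ethanol and 6.10, 6.41, 6.41 and 6.38 CPM with O/A. Ethanol replicate 4 stood near the O/A values, and the others were well above them. The log2(FC) was -0.44 (SE 0.11, edgeR adjusted p = 0.000426), on 106 to 168 counts per library.

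The other large falls were in the small subunit. MRPS12, the counterpart of the bacterial decoding-centre protein S12, ranged from 22.1 to 25.3 CPM with ethanol and from 17.2 to 20.8 CPM with O/A (log2(FC) -0.35). MRPS34 ranged from 44.3 to 49.5 CPM and from 35.6 to 38.2 CPM (log2(FC) -0.32). MRPS2 ranged from 38.5 to 42.6 CPM and from 30.3 to 35.3 CPM (log2(FC) -0.31). MRPS27, a pentatricopeptide repeat protein, ranged from 99.5 to 109 CPM and from 80.7 to 88.1 CPM (log2(FC) -0.31). The groups did not overlap in any of these 4 genes, and the standard errors were 0.036 to 0.065.

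**Figure D2:**
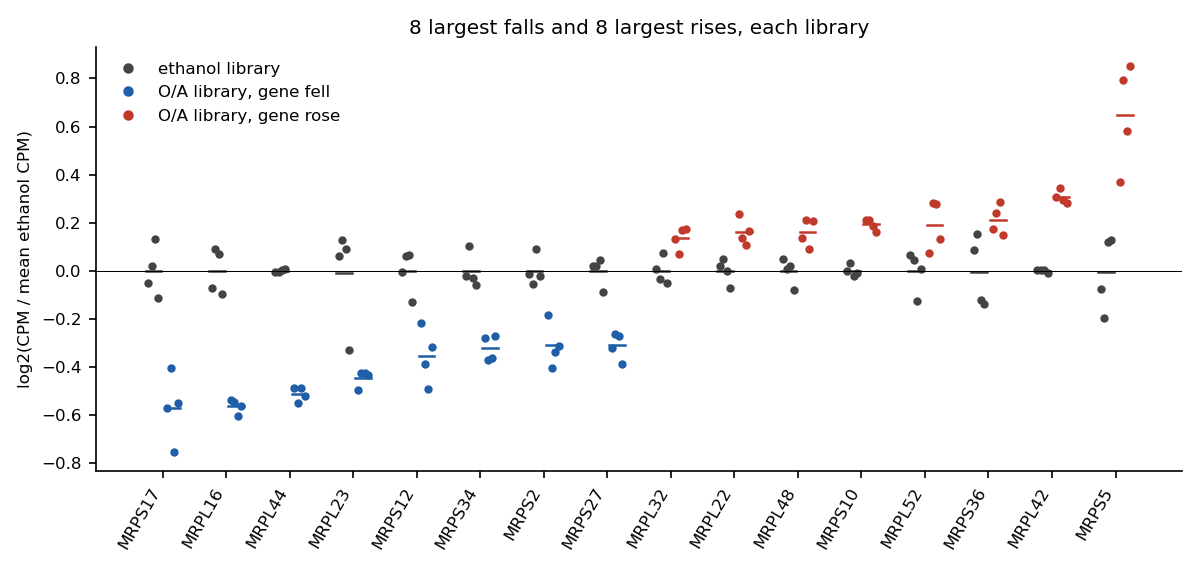
Each library's CPM as a log2 ratio to the mean of the ethanol libraries, for the 8 largest falls and the 8 largest rises among called members, with a bar at the mean of each group of 4. In MRPL44 and MRPL42 the 4 ethanol points nearly coincide, and in MRPL23 ethanol replicate 4 (6.86 CPM) sits close to the O/A libraries.

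The largest rise was that of MRPS5, a conserved protein of the mRNA entry side. It had 11.1, 10.2, 12.7 and 12.8 CPM with ethanol and 15.1, 20.3, 17.5 and 21.1 CPM with O/A, with every O/A library above every ethanol library. The log2(FC) was 0.66 (SE 0.095, edgeR quasi-likelihood adjusted p = 2.05e-06), on 182 to 377 counts per library. It was, however, 1 of the 3 members with the lowest FPKM (0.862 ± 0.0939 in ethanol and 1.32 in O/A). In the GENCODE annotation, 97.1% of the bases of its canonical transcript, 3298 bases long, also belong to a read-through gene (ENSG00000289685) that held 0 to 1 counts. All exons of MRPS5 together cover 13738 bases. Reads on shared bases can be left uncounted, and the part of this in the rise was not tested.

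MRPL42, a mitochondria-specific protein, had the next largest rise. It had 70, 70, 69.9 and 69.3 CPM with ethanol and 86.3, 88.7, 85.7 and 84.9 CPM with O/A. The log2(FC) was 0.31 (SE 0.036, edgeR adjusted p = 1.68e-10), and 1.81% of its canonical transcript is shared. It lies on chromosome 12 from 93467514 to 93516214.

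The remaining rises were smaller. MRPS36 had a log2(FC) of 0.22, with 23.3 to 28.5 CPM in ethanol and 28.4 to 31.3 CPM in O/A, so that its groups overlapped. Despite its symbol, this protein is now known as KGD4, a part of the 2-oxoglutarate dehydrogenase complex of the citric acid cycle, and it is not placed in structures of the ribosome. MRPS10, which sits in the head of the small subunit, had a log2(FC) of 0.19, from 94.3 to 98.0 CPM in ethanol to 107 to 111 CPM in O/A. MRPL52 (0.19), MRPL48 (0.16), MRPL22 (0.16), MRPL32 (0.14) and MRPL10 (0.14) completed the list. Of these 5, all but MRPL32 had every O/A library above every ethanol library. With library totals as the only scaling, MRPL48 (0.12), MRPL32 (0.092) and MRPL10 (0.091) no longer passed the threshold, while both FPKM fits lost MRPL52 (0.14 and 0.13), MRPL32 and MRPL10. MRPL10 also missed the threshold with upper-quartile scaling (0.10) and without ethanol replicate 2 (0.12) or O/A replicate 1 (0.11).

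For the 46 members that did not pass, the log2(FC) ran from -0.321 to 0.13 and the standard errors from 0.0303 to 0.336. The widest error was that of MRPL53 of the stalk, whose counts were 10 to 14 with ethanol and 8 to 11 with O/A. Its log2(FC) of -0.32 had an adjusted p of 0.442 in edgeR's test and was not resolved on these counts. Of its canonical transcript, 99.2% of the bases are shared on the same strand with CCDC142, whose log2(FC) was -0.87. The part of this in the low counts of MRPL53 was not tested. By contrast, MRPL19 (-0.019 ± 0.036) and MRPS16 (-0.014 ± 0.036) were close to no change with small standard errors.

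The 3 MRPS18 paralogs are distinct proteins at different places in the ribosome. MRPS18B, in the small subunit, fell (log2(FC) -0.17, SE 0.045, adjusted p = 0.00137), with 46.4 to 49.0 CPM in ethanol and 41.0 to 45.3 CPM in O/A. MRPS18C, also of the small subunit, had a log2(FC) of 0.021 and MRPS18A, which is in the large subunit in structures, -0.0031. MRPS30 is likewise a large-subunit protein in structures, with a log2(FC) of 0.06. None of these last 3 passed the test, and differences between paralogs were not tested. With MRPS18A and MRPS30 placed in the large subunit, the MRPS median was -0.054.

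The 5 subunit proteins without an MRP symbol were followed alongside, since the symbol rule leaves them out. PTCD3, a pentatricopeptide repeat protein of the small subunit, fell from 59.1 to 65.6 CPM in ethanol to 54.5 to 56.6 CPM in O/A (log2(FC) -0.18). DAP3, a GTP-binding protein of the small subunit, rose by 0.074 on the log2 scale, from 113 to 118 CPM to 119 to 124 CPM, but kept its call, of the other fits on all 8 libraries, only with median-ratio scaling and the replicate block. CHCHD1 (-0.12), GADD45GIP1 (-0.091) and AURKAIP1 (0.0069) did not pass, although CHCHD1 (-0.16 to -0.15) and GADD45GIP1 (-0.14 to -0.12) did with library totals alone, upper-quartile scaling and both FPKM fits, and CHCHD1 (-0.16) also without ethanol replicate 4.

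Of the factors that assemble the mitoribosome, 73.1% passed the test, compared with 41.0% of the members and 53.7% of all genes. The difference was not tested. Of 26 assembly factors (rRNA methyltransferases, helicases, GTPases and rRNA-binding proteins), 13 fell and 6 rose, with a median log2(FC) of -0.16, and 10 of the falls and 1 of the rises were beyond 0.25. In the alternatives, 13 to 15 fell and 2 to 6 rose, and the median stayed between -0.21 and -0.13. DDX28, a DEAD-box helicase of large-subunit assembly, had 14.5, 13.1, 14.9 and 13.9 CPM with ethanol and 6.38, 6.14, 7.09 and 5.57 CPM with O/A. Its log2(FC) was -1.16 (SE 0.091, edgeR quasi-likelihood adjusted p = 8.85e-16). MRM1, which methylates the large ribosomal RNA, fell from between 6.39 and 7.80 CPM to between 2.99 and 3.92 CPM (log2(FC) -1.07), and TRUB2, a pseudouridine synthase family member, from between 33.1 and 37.2 CPM to between 24.5 and 25.9 CPM (log2(FC) -0.50). Every O/A library was below every ethanol library in 13 of the 26 factors, which were the 13 that fell. This held for 24.8% of all genes tested. The call and this separation rest on the same counts. The largest rises were those of the GTPases MTG1 (log2(FC) 0.35) and GTPBP6 (0.19) and of NGRN (0.18). MRM2 had the highest value, 0.90, but with a standard error of 0.42 and less than 1 CPM in every library it did not pass, except without ethanol replicate 3 (1.4) or O/A replicate 4 (1.13). The rises of NGRN and of METTL17, NSUN4 and GTPBP10 were each lost in several alternatives.

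The 15 translation factors, which start, elongate, end and recycle translation on this ribosome, were nearer to no change, with 2 falls, 3 rises and a median of -0.029. TACO1, an activator of the translation of cytochrome c oxidase subunit 1, fell from between 6.28 and 7.69 CPM to between 4.90 and 6.41 CPM (log2(FC) -0.30, with overlapping groups). Its call was lost with DESeq2 (-0.29), under quantile normalization (-0.20) and without ethanol replicate 3 or 4 or O/A replicate 2 (-0.27 to -0.22). GFM1, an elongation factor, had a log2(FC) of -0.11. The rises of MTRFR (0.16), MTRF1L (0.14), both release factor relatives, and MTIF2 (0.089), an initiation factor, all missed the threshold with library totals as the only scaling, with upper-quartile scaling and in both FPKM fits.

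For reference, the genes of the cytosolic ribosome had a narrower spread. Of 81 tested, 55 rose and none fell, all within 0.25, with a median of 0.087 and an interquartile range of 0.0653, compared with 0.239 for the mitoribosome genes. Under quantile normalization that median was -0.021, with 5 rises and 21 falls, so the direction of the cytosolic set depends on scaling. Of 37 nuclear genes of respiratory complex I (NDUF symbols), 9 rose and 2 fell with a median of 0.034, which turned to -0.011 with library totals alone and to -0.012 on log2(FPKM + 0.1). Differences between these sets were not tested.

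At the level of the locus, 27 of the 78 members (34.6%) had a neighbour on the opposite strand whose start lay within 1000 bases, head to head. Among 12300 tested protein-coding genes, 14.2% had such a neighbour. MRPL46 and MRPS11 face each other, with starts 320 bases apart, and neither passed the test, although MRPS11 (-0.10) fell with library totals alone (-0.15), upper-quartile scaling (-0.14) and both FPKM fits (-0.14 and -0.12). For 23 pairs the neighbour was tested and was not itself a mitoribosome gene. In these 23 pairs 10 neighbours fell and 5 rose, while 10 members fell and none rose. Of all genes tested, 27.7% fell and 26.0% rose, and the difference was not tested. Both genes were called in 7 pairs, in the same direction in 5, and only the neighbour was called in 8. The median absolute log2(FC) was 0.23 for the neighbours and 0.082 for the members.

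Several neighbours changed strongly beside a mitoribosome gene that did not pass in the TMM-scaled fit. EME1, a subunit of a DNA endonuclease, starts 45 bases from MRPL27 and had a log2(FC) of -1.49 ± 0.12 (standard error), while MRPL27 had -0.082 ± 0.052. TWNK, the helicase of mitochondrial DNA replication, starts 46 bases from MRPL43 and had -0.79 ± 0.056, while MRPL43 had -0.077 ± 0.053. SKA3, a kinetochore protein, had -0.53 ± 0.057 beside MRPL57 with -0.043 ± 0.077. With library totals alone MRPL27 (-0.13) and MRPL43 (-0.12) also passed as falls, as did MRPL43 in both FPKM fits (-0.12 and -0.11). In the 5 pairs called in the same direction, both genes fell. They were PPP1R10 (-1.06) with MRPS18B (-0.17), PTCD2 (-0.66) with MRPS27 (-0.31) and EME2 (-0.58) with MRPS34 (-0.32). The others were HIRA (-0.50) with MRPL40 (-0.16) and NCAPD2 (-0.41) with MRPL51 (-0.18). In 2 pairs the genes moved in opposite directions, with MRPL30 at -0.20 and MITD1 at 0.36, and MRPL14 at -0.28 and TMEM63B at 0.17. The exons of MRPS34 overlap those of EME2 (-0.58) on the other strand over 341 bases. Such overlaps also join MRPL51 with NCAPD2 (383 bases), MRPS27 with PTCD2 (276 bases) and MRPL43 with TWNK (149 bases). Some other pairs have shorter ones. Reads from these stretches cannot be told apart unless the counting used strand.

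The levels of the members differed widely although the assembled ribosome holds these proteins in nearly equal number. The mean FPKM over the 8 libraries ranged from 0.821 (MRPL53) to 54.1 (MRPL51), a ratio of 65.9, with a median of 13.7. After MRPL51 (58.3 ± 0.476 in ethanol and 49.9 in O/A), the highest were MRPL3 (53.4 ± 1.36 and 49.6) and MRPS10 (46.3 ± 0.746 and 51.2). The FPKM of the 2 groups did not overlap in any of these 3 genes, but the TMM-scaled CPM of MRPL3 did (138 to 146 with ethanol and 134 to 140 with O/A), and its log2(FC) of -0.059 did not pass. MRPL3 was called a fall with library totals alone (-0.10), upper-quartile scaling (-0.092), quantile normalization (-0.12) and both FPKM fits (-0.10 in each), and when ethanol replicate 4 was left out (-0.077). The lowest after MRPL53 were MRPL46 (1.07 ± 0.0624 and 1.01) and MRPS5.

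The FPKM of some members depended on the gene models. The exonic size used by the authors equalled the union of all GENCODE v44 exons for all 78 members, and in 19 of them it was over 3 times the length of the canonical transcript, as for MRPS22 (16385 against 1205 bases) and MRPS27 (19524 against 2770 bases). Per kilobase of canonical transcript, MRPS22 stood at 51.5 and MRPS27 at 34.5, and the highest were MRPS15 (93.4), MRPL51 (83.6) and MRPL3 (81.9). This count over canonical length includes reads on the other exons, which raises it. Where canonical bases are shared with another gene, as for MRPS22 (26.6% with COPB2), reads left uncounted can lower it. Canonical length did not narrow the spread of the 78 members. The highest was 81.9 times the lowest, against 65.9 times in the deposited FPKM. MRPL53 was the lowest on both scales, with 0.821 FPKM and 1.14 per kilobase of canonical transcript.

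For 10 members, over 50% of the canonical transcript was also annotated to another gene, which is 12.8% of the members and 5.17% of the tested protein-coding genes. They are MRPL53 (99.2%, with CCDC142), MRPS5 (97.1%), MRPL38 (94.3%), MRPS24 (90.9%, with the read-through URGCP-MRPS24), MRPS18C (83.6%, with ABRAXAS1 on the other strand), MRPL46 (73.4%), MRPL12 (69.5%), MRPS18A (60.6%, with RSPH9 on the other strand), MRPS28 (56.2%) and MRPL2 (54.5%). Their median FPKM was 3.29, compared with 15.2 for the other 68, and 8.64 against 29.6 per kilobase of canonical transcript. The 3 members with the lowest FPKM were among them. Of these 10 genes, 1 rose and 1 fell, and of the other 68, 8 rose and 22 fell.

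A RefSeq promoter of 300 bases (250 before and 50 after the start) was found for 70 members. The ETS letters CCGGAAG occurred on either strand in 30 of them (42.9%), in 22.5% of 10813 tested genes with a promoter and in 10.3% of all 35116 promoters. The YY1 letters AAGATGGCG occurred in 13 (18.6%), in 4.66% of tested genes and in 1.75% of all promoters. The NRF1 letters GCATGCGC occurred in 6 (8.57%), against 6.42% of tested genes and 3.05% of all promoters, and the E-box CACGTG in 10 (14.3%), against 12.2% and 7.26%. No member's promoter held the letters TGATGCAA, an element bound by ATF4, which occurred in 0.758% of tested genes and in 0.866% of all promoters. The ETS and YY1 strings can overlap only at their ends, and each string was counted once per gene.

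By call, 10 of the 30 members with the ETS letters fell and 3 rose. Of the 13 with the YY1 letters, 1 fell (MRPS18B) and 5 rose (MRPL22, MRPL32, MRPL42, MRPL52 and MRPS10). Over the 70 members with a promoter, 21 fell and 8 rose. These are counts of letter matches on calls already known, with no test.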

How the data were processed

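Poly(A) mRNA of N/TERT-1 cells was sequenced in 4 ethanol and 4 O/A libraries, grouped by their labels. According to the study's methods and the submitters' processing notes, the authors used HISAT2 2.0.1 to align paired-end reads to GRCh38.p13 and counted them per Ensembl gene with HTSeq 0.6.1. The Ensembl release and the strand and overlap settings are not given in the sources used here. HTSeq by default leaves uncounted the reads that 2 genes share. The deposited counts are not normalized. The deposited FPKM are the authors' counts divided by the union exon length and the library total. The authors' DESeq2 comparison columns (fold changes, p-values) were not used.

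Counts were tested with the robust quasi-likelihood test of edgeR 4.0.16 (R 4.3.3, TMM scaling), with Benjamini-Hochberg adjustment over 14893 genes that had at least 10 counts in at least 4 of the 8 libraries. CPM in the text are TMM-scaled. The deposited exon lengths, coordinates and overlaps were compared with GENCODE v44, promoters came from RefSeq on GRCh38.p14, and neighbours within 1000 bases were taken as head to head. The libraries held between 17210404 and 20999927 counts, and members with few counts, such as MRPL53, were imprecise. Named genes are the 8 largest rises and 8 largest falls at an adjusted p of 0.05 or less, the 3 highest and 3 lowest by FPKM, the MRPS18 paralogs and MRPS30, the 5 subunits without an MRP symbol, and the 3 largest rises and falls in the assembly and translation factor lists. Other genes, among them the head-to-head pairs, the E-box and other motifs and the examples that did not pass, were chosen after their values were seen. The members and lists were chosen with earlier results of these data known. The fits were tested on simulated data. Alternatives were DESeq2 1.42.0, limma 3.58.1 on log2(FPKM + 0.1) and log2(FPKM + 1), 4 other scalings, no filter, leaving out each library, a replicate block, the fold threshold of 0.25 and other choices of members.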

Additional observations from a re-analysis of the deposited data

Results flagged for a closer look

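Among the named genes and the subunit levels, 132 groups of 4 libraries were examined for a library far from the others by Dixon's test at the 95% level, which chance flags in about 1 in 20 groups, or 6.6 here, and 5 were found. MRPL23 had 6.86 CPM in ethanol replicate 4, while the other ethanol libraries had 9.0 to 9.42 CPM. In O/A replicate 1, MRPL23 had 6.10 CPM, while the other O/A libraries had 6.38 to 6.41 CPM. MRPL42 had 69.3 CPM in ethanol replicate 4 and 69.9 CPM or more in the other ethanol libraries. MRPS18B had 45.3 CPM in O/A replicate 1 and 41.0 to 41.3 CPM in the other O/A libraries. MRPL17 had 39.0 CPM in ethanol replicate 4 and 43.5 to 43.9 CPM in the other ethanol libraries, so that this library was the low one in 3 of the 5.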

How the results depend on the processing

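Of the 6 MRPL genes that rose, 3 were called with library totals alone (MRPL10, MRPL32 and MRPL48 were lost) and with limma on log2(FPKM + 0.1) or log2(FPKM + 1) (MRPL10, MRPL32 and MRPL52 were lost). With the fold threshold of 0.25, 1 MRPL gene rose and 5 fell, and 1 MRPS gene rose and 7 fell. The MRPL and MRPS medians moved by more than the spread between replicates with library totals alone (-0.07 and -0.075), upper-quartile scaling (-0.057 and -0.062), log2(FPKM + 0.1) (-0.068 and -0.072) and log2(FPKM + 1) (-0.062 and -0.06). These 4 settings also lower the median of all genes, to between -0.046 and -0.028. The MRPS median was 0.0059 under quantile normalization and -0.054 by place in the structure. The large-minus-small difference was -0.051 without members whose exons overlap another expressed gene and 0.037 without those that share over 50% of the canonical transcript, a choice added after seeing the data, as was leaving out MRPS36, which moved no count or median beyond these bounds. Assembly factors that rose numbered 2 with library totals alone and with both FPKM fits, and 3 with upper-quartile scaling and with no filter. Translation factors that rose numbered 0 with library totals alone, upper-quartile scaling and both FPKM fits, and 1 with DESeq2 and with no filter, and 1 fell with DESeq2. The cause of these moves was not tested beyond the scaling itself.

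With each library left out in turn, MRPL rises numbered 5 to 8 and falls 11 to 13, MRPS rises 3 to 4 and falls 10 in each, assembly factor rises 3 to 6 and falls 13 to 14, and translation factor rises 0 to 3 and falls 1 to 2. The fewest assembly factor rises (3) came without ethanol replicate 2, and the fewest translation factor rises (0) without O/A replicate 1. The medians ran from -0.04 to -0.016 for MRPL and from -0.045 to -0.012 for MRPS.

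Over all members, 7 of the 32 calls were lost in at least 1 fit and 15 genes gained a call in at least 1, and over the 26 assembly factors 4 were lost and 4 gained. Among members, other subunits and factors, calls lost without 1 library were those of METTL17 (6 libraries, 0.063 to 0.13), NSUN4 (ethanol 2, 0.12), TACO1 (without ethanol replicate 3 or 4 or O/A replicate 2, -0.27 to -0.22), MTIF2 (ethanol 1 or 4 or O/A 1 or 2, 0.069 to 0.09), MTRFR (ethanol 2 or 3 or O/A 1 or 4, 0.13 to 0.15), MTRF1L (ethanol 4 or O/A 1, 0.11), NGRN (ethanol 1, 2 or 4 or O/A 3 or 4, 0.13 to 0.18), DAP3 (any of 6 libraries, 0.067 to 0.078), MRPL10 (ethanol 2 or O/A 1, 0.11 to 0.12), MRPL12 (O/A 2, -0.13), MRPL40 (ethanol 3 or O/A 1 or 3, -0.14 to -0.13) and MRPL4 (ethanol 1, 2 or 4 or O/A 2 or 4, -0.13 to -0.069). DESeq2 also lost MRPL40 (-0.15), MRPL4 (-0.12) and TACO1 (-0.29), and of the rises METTL17 (0.12), NGRN (0.19), DAP3 (0.081), MTIF2 (0.10) and MTRFR (0.17).

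The sign of 20 members changed in at least 1 fit, never with a call. Of the genes whose level or log2(FC) is given above, these were MRPS33 (8.5e-05 with median-ratio scaling, and up to 0.013 with libraries left out), MRPL57 (0.015 under quantile normalization), MRPS25 (-0.1 to 0.023 with libraries left out), MRPL46 (0.056 under quantile normalization, and -0.092 to 0.037 with libraries left out), MRPS18A (0.0035 with DESeq2, 0.0042 with median-ratio scaling, 0.017 under quantile normalization, and up to 0.026 with libraries left out), MRPS18C (-0.025 with library totals alone and on log2(FPKM + 0.1), -0.012 with upper-quartile scaling, -0.022 on log2(FPKM + 1), and -0.0093 to 0.051 with libraries left out) and, of the subunits without an MRP symbol, AURKAIP1 (-0.039 with library totals alone, -0.026 with upper-quartile scaling, -0.038 and -0.037 on the FPKM scales, and -0.0077 to 0.032 with libraries left out).

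Whether an ethanol and an O/A library of the same number came from 1 experiment is not given in the labels. Over all genes tested, the deviations of same-numbered libraries from their group means correlated by 0.039, -0.0021, -0.023 and 0.067. No shared effect of the replicate number was seen in this measure, which cannot decide whether the libraries were paired. With replicate as a block, under which MRPL4 (-0.13) missed the threshold, 6 MRPL genes rose and 12 fell, 3 MRPS genes rose and 10 fell, 5 assembly factors rose and 13 fell, and 3 translation factors rose and 2 fell, with medians of -0.024 and -0.03.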
